A study of Mus musculus with 6 samples.

Results

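Rtp4, Lgals3bp, Plac8, Ncoa7, Rnf213, Ddx60, Phf11d, Ifi35, Ifi44 and Xaf1 are interferon-induced genes that have received less study than the Ifit, Oas or Mx families. These 10 genes were chosen by symbol, with their differences between Trex1 KO and Trex1 WT hearts already known from these arrays, so the differences below are a description and carry no test. A probe set, the group of short probes that measures 1 transcript on this type of array, was annotated to 9 of the 10 genes, out of 18193 genes with a probe set of their own. No probe set was annotated to Ifi44, and it was not analysed here. The 9 genes had 16 probe sets: 3 genes had 1, 5 genes had 2 and Ifi35 had 3.

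RNA came from heart ventricles of 3 Trex1 KO mice and 3 Trex1 WT mice, 1 array per mouse, and every mouse also lacked Rag2. The mice formed 3 littermate pairs, A, B and C, each with 1 Trex1 KO and 1 Trex1 WT animal. By sex markers both mice of pair C were female and those of pairs A and B male. The Y-chromosome gene Eif2s3y read 2138 to 2571 in pairs A and B. It read 47.3 in Trex1 KO C and 6.6 in Trex1 WT C, and the female marker Xist was high in pair C alone. Sex thus differed between pairs but not within them, and its part in differences between pairs was not tested. The sources used here give no age or strain. Without Rag2 no mature T or B lymphocytes form, so the comparison asks what the loss of Trex1, an exonuclease that clears DNA from the cytosol, does to heart transcripts in mice with innate immunity alone. Whole tissue was measured, so a change in the number of cells of a type and a change in RNA per cell cannot be told apart.

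Cells that sense DNA or RNA in the wrong compartment release type I interferon, which binds its receptor on the same and on neighbouring cells and switches on many genes. Many of these carry the interferon-stimulated response element, or ISRE, in their promoters, and some carry a different element, the gamma-activated site, or GAS. The products of the genes described here act at many points: Lgals3bp outside the cell, Rtp4 on receptors in the secretory path, Ncoa7 at endosomes, Rnf213 in ubiquitin tagging, Ddx60 on RNA, Phf11d in the nucleus, Ifi35 as a partner of other proteins and Xaf1 in cell death.

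Promoter sequences were available from RefSeq (build GRCm38.p6) for 9 of the 10 genes, Rtp4 being the exception, in 11 windows from 250 bases before to 50 bases after a transcription start, since Plac8 and Ncoa7 each had 2 starts. The ISRE core searched was GAAANNGAAA on either strand, and the GAS core was TTCNNNGAA, which reads the same on both strands in its fixed bases. An ISRE core lay in windows of 2 of the 9 genes, Ddx60 and Ncoa7, and both also held the longer form GAAANNGAAAC. Over all genes with a window, 3.99% held the ISRE core and 0.944% the longer form. The GAS core lay in the window of Ifi35 alone, against 9.55% of all genes. The windows with a match are shown for Ddx60, Ncoa7 and Ifi35, and for Ncoa7 the window of its other start as well, with matches in capitals and each read in the direction of the gene.

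Ddx60, plus strand, chr8:61927837-61928136, with 2 ISRE cores upstream of the start: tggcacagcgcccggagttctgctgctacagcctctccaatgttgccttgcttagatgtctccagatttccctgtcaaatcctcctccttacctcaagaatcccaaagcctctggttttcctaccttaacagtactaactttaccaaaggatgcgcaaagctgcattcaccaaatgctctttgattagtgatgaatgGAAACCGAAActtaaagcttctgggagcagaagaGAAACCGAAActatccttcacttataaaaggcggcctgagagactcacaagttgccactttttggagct

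Ncoa7, minus strand, internal start, chr10:30655818-30656117, with 1 ISRE core just after the start: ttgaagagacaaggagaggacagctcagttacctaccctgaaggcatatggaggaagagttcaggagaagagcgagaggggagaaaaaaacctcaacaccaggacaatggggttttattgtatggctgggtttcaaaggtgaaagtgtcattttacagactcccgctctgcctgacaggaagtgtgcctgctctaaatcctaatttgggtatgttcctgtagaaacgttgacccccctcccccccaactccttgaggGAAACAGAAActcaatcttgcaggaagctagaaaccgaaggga

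Ncoa7, minus strand, upstream start, chr10:30803277-30803576, with no match: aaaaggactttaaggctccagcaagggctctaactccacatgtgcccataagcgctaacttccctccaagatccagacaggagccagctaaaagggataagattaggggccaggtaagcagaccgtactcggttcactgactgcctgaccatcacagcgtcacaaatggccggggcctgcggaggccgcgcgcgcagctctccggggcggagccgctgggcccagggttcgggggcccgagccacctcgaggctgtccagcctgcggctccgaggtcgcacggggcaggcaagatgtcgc

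Ifi35, plus strand, chr11:101448162-101448461, with 1 GAS core just after the start: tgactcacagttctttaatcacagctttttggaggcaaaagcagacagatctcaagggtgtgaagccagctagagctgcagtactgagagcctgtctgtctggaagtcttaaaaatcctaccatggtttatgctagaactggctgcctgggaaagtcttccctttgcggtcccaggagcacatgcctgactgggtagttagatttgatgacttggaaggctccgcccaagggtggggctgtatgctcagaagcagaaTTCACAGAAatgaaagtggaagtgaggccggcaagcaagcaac

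Ddx60 carried the same 10 letters, GAAACCGAAA, at bases 198 and 232 of its window, where base 251 is the start. In Ncoa7 the match GAAACAGAAA began at base 258 of the internal window, and the window of the upstream start had none. As background, interferon is known to induce a short form of Ncoa7 that begins inside the gene. Whether this window is its start, and which form the Ncoa7 probe sets detect, was not tested. Among the 32 other genes that passed the test as higher in Trex1 KO hearts, 21 had a promoter window and 12 of these, or 57.1%, held the ISRE core, against 3.61% of all tested genes with a window. A match is a run of letters, not a shown binding site, and its absence says only that these letters are not in that window.

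The deposited values had the same trimmed mean, 500.0, on every array, so their overall level says nothing about the hearts. The arrays were not alike in every measure of RNA quality. The probe set annotated to Trex1 together with Atrip had signals of 9.45, 20.6 and 34.2 in Trex1 KO hearts A, B and C, against 714, 340 and 887 in Trex1 WT hearts A, B and C. The highest signal of 27 bacterial control probe sets, which match nothing in the tissue, was 69.8, and signals near or below it are treated here as dim. The Actb 3' to 5' ratio, which rises as RNA degrades, lay between 1.6 and 1.68 in Trex1 KO and between 1.8 and 2.29 in Trex1 WT hearts, without overlap, and its part in the results was not tested beyond the alternative fit below. The 18S ribosomal control probe set read 2834, 1907 and 797.7 in Trex1 KO hearts A, B and C. In Trex1 WT hearts A, B and C it read 12810, 13710 and 923.9, higher than in the Trex1 KO littermate in every pair. The part of this control in the results was not tested. All 8 cardiomyocyte markers were measured, and their summed signal was 287560 to 322132 in Trex1 KO and 272445 to 336236 in Trex1 WT hearts. Of 6 measured T and B lymphocyte markers only Cd8a was bright enough to test, and Cd3e, Cd4 and Cd79a were dim on every array. Of the 4 atrial markers Sln was dim on every array, and the summed signal of the 3 tested was 28544 to 36229 in Trex1 KO and 11308 to 19361 in Trex1 WT hearts, without overlap. Nearly all of it was Nppa, a gene that stressed ventricles also express, with signals of 28144, 30449 and 35782 in Trex1 KO and 10934, 18482 and 19078 in Trex1 WT hearts A, B and C (adjusted p in limma = 0.126). Endothelial markers summed to 10315 to 12880 in Trex1 KO and 10461 to 15178 in Trex1 WT hearts, and fibroblast markers to 37490 to 41304 in Trex1 KO and 32175 to 40107 in Trex1 WT hearts. The median log2 difference was -0.02 over the cardiomyocyte markers (Tnnt2, the brightest, -0.02), -0.06 over the endothelial markers, 3 of 7 of them above 0 (Emcn, the brightest, 0.16), and 0.14 over the fibroblast markers (Dcn, the brightest, 0.16). The part of these markers in the results was not tested.

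All 9 measured genes were higher in Trex1 KO hearts, by 0.91 to 2.81 on a log2 scale. The brightest probe set stood for each gene, and differences are Trex1 KO minus Trex1 WT on log2(signal + 16). Their median was 1.24, beside -0.02 for all 12811 tested genes, whose middle 50% lay between -0.13 and 0.10. The medians within littermates were 1.11, 1.46 and 1.13 for littermates A, B and C. All 27 littermate differences were above 0, the lowest 0.23 for Xaf1 in pair C and the highest 3.15 for Plac8 in pair C. In the fit over all probe sets 8 of the 9 passed as higher (limma, Benjamini-Hochberg adjusted p under 0.05) and Xaf1 did not, where 0.312% of tested genes passed as higher and 0.039% as lower. The 3 Trex1 KO arrays lay above the 3 Trex1 WT arrays for 9 of 9, as they did for 5.03% of tested genes. Nothing is read from these counts, since the genes were chosen on this contrast.

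**Figure D1:**
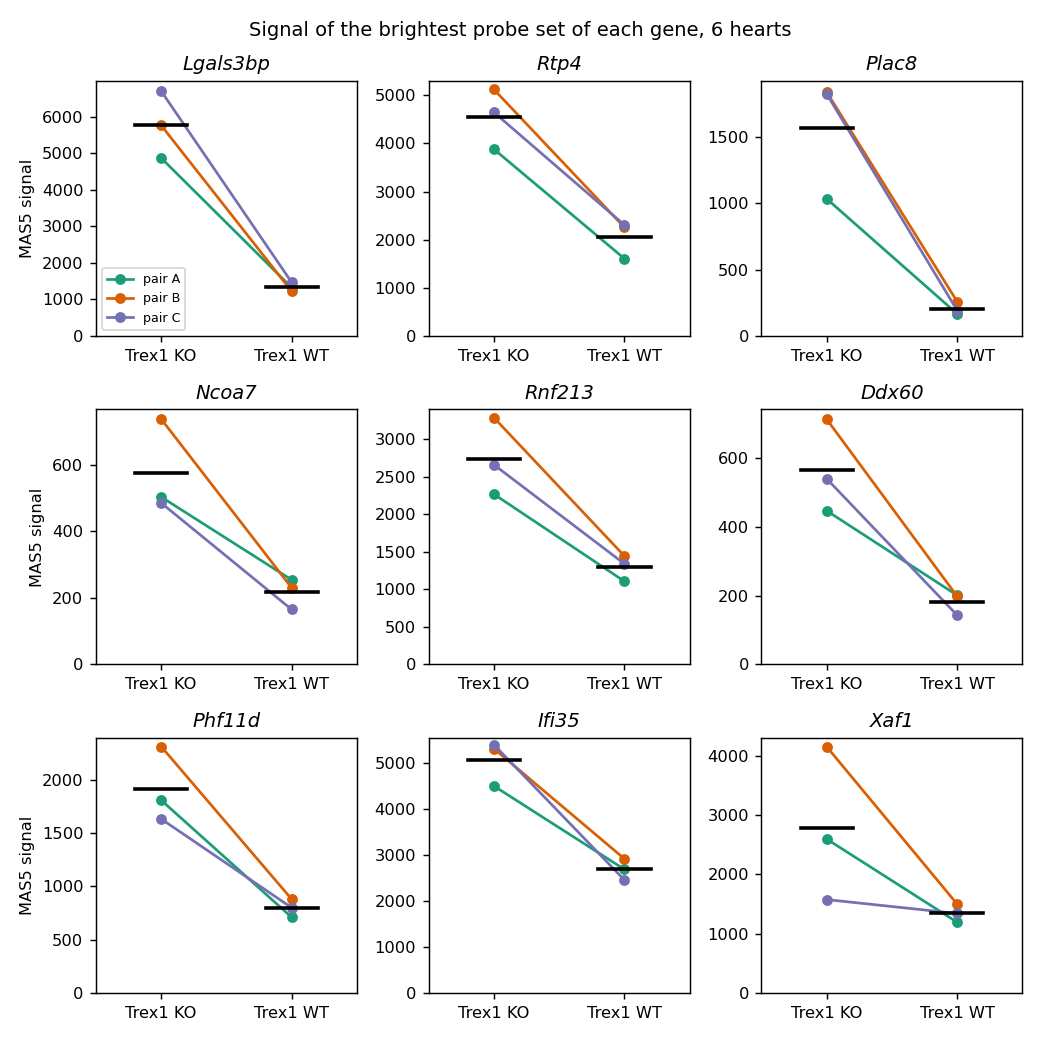
MAS5 signal (linear, from 0) of the brightest probe set of each of the 9 genes in Trex1 KO and Trex1 WT hearts, with a line joining littermates and a bar at the mean of 3. Every Trex1 KO heart lies above every Trex1 WT heart, by the least for Xaf1, where Trex1 KO C reads 1573 and Trex1 WT B reads 1496.

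Lgals3bp encodes a secreted glycoprotein that binds galectins and cell matrix. It had signals of 4875, 5769 and 6709 in Trex1 KO hearts A, B and C, against 1325, 1223 and 1470 in Trex1 WT hearts A, B and C. The lowest Trex1 KO heart was thus 3.32 times the highest Trex1 WT heart. The means were 5784 ± 917 in Trex1 KO and 1339 ± 125 in Trex1 WT hearts (SD, n = 3), a log2 difference of 2.09 (SE 0.13) and a fold of 4.26. The differences within littermates, 1.87, 2.22 and 2.18, were close together.

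Galectins, the sugar-binding proteins that Lgals3bp attaches to, did not pass the test. Lgals9, which carries 2 sugar-binding domains, had signals of 2358, 3312 and 3320 in Trex1 KO and 1084, 1425 and 1747 in Trex1 WT hearts A, B and C (log2 difference 1.08, SE 0.19, adjusted p in limma = 0.0629). The groups did not overlap, and with the littermate pair as a replicate block the adjusted p was 0.0013 in limma. Lgals3, the galectin of macrophages, had a log2 difference of 0.70 (adjusted p in limma = 0.342) and Lgals1 had 0.07 (adjusted p in limma = 0.977).

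Rtp4 encodes a receptor transporter protein that helps some G protein-coupled receptors, opioid receptors among them, reach the cell surface. Its brighter probe set had signals of 3880, 5121 and 4646 in Trex1 KO hearts A, B and C, against 1607, 2256 and 2306 in Trex1 WT hearts A, B and C. Trex1 KO A and its Trex1 WT littermate were each the lowest of their group. The means were 4549 ± 626 in Trex1 KO and 2057 ± 390 in Trex1 WT hearts (SD, n = 3), a log2 difference of 1.15 (SE 0.16). The dimmer probe set gave 127, 203 and 173 in Trex1 KO, against 65.5, 89.3 and 41.9 in Trex1 WT hearts A, B and C, with a log2 difference of 1.19. The mean differences were thus close at very different brightness, but the dimmer Trex1 WT signals lay near the highest bacterial control (69.8). The littermate differences for A, B and C ran in opposite orders. They were 1.26, 1.18 and 1.01 on the brighter and 0.81, 1.06 and 1.71 on the dimmer probe set. Of its relatives, Rtp3 alone was measured, with a log2 difference of -0.58 (adjusted p in limma = 0.951).

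Plac8 had the largest difference of the 9. It encodes a small cysteine-rich protein found in myeloid cells and plasmacytoid dendritic cells, among others. Its signals were 1035, 1840 and 1826 in Trex1 KO hearts A, B and C, against 167, 259 and 192 in Trex1 WT hearts A, B and C. The lowest Trex1 KO heart was 3.99 times the highest Trex1 WT heart, and Trex1 KO A was clearly below the other two. Trex1 KO hearts averaged 1567 ± 460 and Trex1 WT hearts 206 ± 48.0 (SD, n = 3), with a log2 difference of 2.81 (SE 0.24) and a fold of 7.01.

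Markers of cells known to contain Plac8 did not pass the test, and their summed signals, which follow the brightest markers most, overlapped between the groups. Most tested markers had differences above 0, as did 44.5% of all tested genes. They were 8 of 11 for monocytes and macrophages, 3 of 4 for neutrophils, 2 of 3 for plasmacytoid dendritic cells and 6 of 7 for natural killer cells. Over all tested genes 0.312% passed as higher, and 5.29% had an unadjusted p under 0.05 in limma. Of 11 tested monocyte and macrophage markers 0 passed in limma (2 at an unadjusted p under 0.05), and their summed signal was 18847 to 24832 in Trex1 KO and 14872 to 23265 in Trex1 WT hearts. Of 4 tested neutrophil markers 0 passed in limma (1 at an unadjusted p under 0.05), with sums of 472 to 1576 in Trex1 KO and 493 to 688 in Trex1 WT hearts, and Camp and Cxcr2 were dim on every array. The calprotectin subunit S100a8 had signals of 193, 678 and 603 in Trex1 KO hearts A, B and C, against 295, 242 and 199 in Trex1 WT hearts A, B and C. S100a8 in Trex1 KO A thus lay below all 3 Trex1 WT hearts. Csf3r, the receptor for the growth factor of neutrophils and named after its values were seen, had 84, 84.6 and 73.2 in Trex1 KO and 64.1, 28.1 and 30.6 in Trex1 WT hearts A, B and C, so that all 3 Trex1 KO hearts lay above the Trex1 WT hearts, though close to the highest bacterial control (adjusted p in limma = 0.901). Ngp, another tested neutrophil marker, went the other way. It had 19.7, 76.7 and 88.6 in Trex1 KO and 99.9, 61.5 and 115 in Trex1 WT hearts A, B and C (log2 difference -0.59, adjusted p in limma = 0.955). Of the plasmacytoid dendritic cell markers Siglech and Ccr9 were dim on every array, and 0 of the 3 tested passed in limma (1 at an unadjusted p under 0.05), with sums of 6783 to 8541 in Trex1 KO and 5732 to 7026 in Trex1 WT hearts. Natural killer markers gave 0 of 7 in limma (1 at an unadjusted p under 0.05), with sums of 965 to 2538 in Trex1 KO and 645 to 1023 in Trex1 WT hearts. The median log2 difference was 0.25 over the monocyte and macrophage markers (Lyz2, the brightest, 0.29), 0.80 over the neutrophil markers and 0.68 over the natural killer markers (Gzma, the brightest, 0.96). Of the plasmacytoid dendritic cell markers Tcf4, the brightest, differed by -0.02, Irf8 by 0.23 and Bst2, which interferon induces in many cells, by 1.17 (adjusted p in limma = 0.993, 0.960 and 0.0629). The part of these cells in the Plac8 difference was not tested.

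Ncoa7 encodes a protein of the TLDc family, whose short interferon-induced form in human cells acts on the proton pump of endosomes. Its brighter probe set had signals of 503, 737 and 485 in Trex1 KO hearts A, B and C, against 254, 230 and 165 in Trex1 WT hearts A, B and C. The groups did not overlap, and Trex1 KO B stood above the other two. Trex1 KO hearts averaged 575 ± 141 and Trex1 WT hearts 216 ± 46.3 (SD, n = 3), a log2 difference of 1.34 (SE 0.22), with 0.94, 1.62 and 1.47 for littermates A, B and C. The second probe set was dim on every array, between 18.1 and 37.8 in Trex1 KO and between 16.8 and 31.6 in Trex1 WT hearts, and its groups overlapped (log2 difference 0.11). The relatives with the same domain had differences near 0 or below: -0.01 for Oxr1 and -0.29 for Tbc1d24 (adjusted p in limma = 0.998 and 0.955).

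Rnf213 encodes a very large ubiquitin ligase with an ATPase motor, known in humans for variants that predispose to moyamoya disease of the brain's arteries. Its brighter probe set had signals of 2268, 3287 and 2660 in Trex1 KO hearts A, B and C, against 1107, 1444 and 1340 in Trex1 WT hearts A, B and C. In each group the order of the pairs was the same, B above C above A. Trex1 KO hearts averaged 2738 ± 514 and Trex1 WT hearts 1297 ± 172 (SD, n = 3), with a log2 difference of 1.06 (SE 0.15) and littermate differences of 1.02, 1.18 and 0.98. The second probe set lay close to the highest bacterial control, with 80.6, 74.2 and 78.8 in Trex1 KO and 75.2, 42.8 and 71.3 in Trex1 WT hearts A, B and C, and its groups overlapped (log2 difference 0.27). Rnf31, the catalytic subunit of the linear ubiquitin ligase, had a difference of 0.34 (adjusted p in limma = 0.871).

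Lgals3bp and Rnf213 both lie on chromosome 11, as do Ifi35 and Xaf1, so that 4 of the 10 genes share a chromosome that held 8.38% of tested genes. Between Lgals3bp and Rnf213, in the gene order of GRCm38.p6, stood 11 tested genes with differences from -0.97 to 0.40 and a median of -0.06. In limma 0 of the 11 passed. Among the 40 tested genes nearest to each of the 9, the medians lay between -0.09 and 0.01, and the genes that passed were Apod near Rtp4, and Lgals3bp and Rnf213 near each other.

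Ddx60 encodes a helicase of the DExD/H-box type that has been proposed as a helper of RNA sensors. Its brighter probe set had signals of 447, 713 and 540 in Trex1 KO hearts A, B and C, against 201, 198 and 143 in Trex1 WT hearts A, B and C. Every Trex1 KO heart was at least 2.23 times the highest Trex1 WT heart. Trex1 KO hearts averaged 567 ± 135 and Trex1 WT hearts 181 ± 32.6 (SD, n = 3), a log2 difference of 1.56 (SE 0.21), with 1.10, 1.77 and 1.81 for littermates A, B and C. The second probe set gave 169, 14.7 and 64.5 in Trex1 KO and 1.55, 36.7 and 23.3 in Trex1 WT hearts A, B and C, so that Trex1 KO A alone exceeded the highest bacterial control and the groups overlapped.

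Ddx58 and Dhx58, the only RNA sensor genes chosen as relatives of Ddx60, both passed the test. Ddx58, which encodes the sensor RIG-I, had signals of 1307, 1621 and 1313 in Trex1 KO hearts A, B and C, against 605, 617 and 662 in Trex1 WT hearts A, B and C (log2 difference 1.14, SE 0.13, adjusted p in limma = 0.00392). Its groups were far apart, while 0.93 and 1.38 on its dimmer probe sets fell short of the threshold (adjusted p in limma = 0.398 and 0.827). Dhx58, a regulator of RIG-I, had 126, 208 and 174 in Trex1 KO, against 10.9, 40.5 and 20.9 in Trex1 WT hearts A, B and C (adjusted p in limma = 0.0474). All 3 Trex1 WT values were below the highest bacterial control, so its difference is only a bound. The geometric mean of the Trex1 KO hearts was 2.38 times that control (69.8), and the lowest Trex1 KO heart read 126. The fitted log2 difference was 2.25 with a pseudocount of 16 and 1.40 with 64, and the other probe sets of Dhx58 gave 0.69 and -0.19. The Dhx58 call was lost in 15 of 18 alternative fits (adjusted p in limma from 0.0166 to 0.503), and that of Ddx58 in 4 of 18, up to 0.369.

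Phf11d belongs to a cluster of PHD-finger genes on mouse chromosome 14. It had signals of 1809, 2313 and 1633 in Trex1 KO hearts A, B and C, against 710, 880 and 800 in Trex1 WT hearts A, B and C. The groups were well separated and Trex1 KO C was the lowest of its group. Trex1 KO hearts averaged 1918 ± 353 and Trex1 WT hearts 797 ± 84.8 (SD, n = 3), with a log2 difference of 1.24 (SE 0.15). The cluster members Phf11a, Phf11b and Phf11c had no probe set of their own in the annotation, so the share of those relatives in this signal was not tested.

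Ifi35 encodes a leucine-zipper protein that forms a complex with Nmi. Its 3 probe sets, all well above the bacterial controls, had log2 differences of 0.91, 0.97 and 0.78 from the brightest to the dimmest. The brightest had 4490, 5300 and 5386 in Trex1 KO hearts A, B and C, against 2681, 2910 and 2450 in Trex1 WT hearts A, B and C, without overlap. The second had 1343, 1386 and 1313 in Trex1 KO and 643, 635 and 777 in Trex1 WT hearts A, B and C. Here the 3 Trex1 KO hearts were nearly level, with a coefficient of variation of 2.73%. The probe IDs of the brightest and the dimmest carry the suffixes s and x, which mark probes that can match more than 1 transcript, and the second does not. Nmi, its binding partner, had 1571, 2182 and 1682 in Trex1 KO, against 1308, 1570 and 1011 in Trex1 WT hearts A, B and C, barely apart (log2 difference 0.49, adjusted p in limma = 0.803).

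Xaf1, which encodes an antagonist of the caspase inhibitor XIAP, had 2 probe sets that disagreed, most of all in Trex1 KO C. Its brighter probe set had signals of 2593, 4149 and 1573 in Trex1 KO hearts A, B and C, against 1191, 1496 and 1339 in Trex1 WT hearts A, B and C. Trex1 KO C was nearly level with the Trex1 WT hearts, and the differences were 1.11, 1.46 and 0.23 for littermates A, B and C. The second probe set had signals of 105, 122 and 3472 in Trex1 KO hearts A, B and C, against 46.9, 95.3 and 117 in Trex1 WT hearts A, B and C. On this probe set the littermate differences were 0.95, 0.31 and 4.72, so that pair B also differed between the probe sets, and the 5 hearts other than Trex1 KO C all read 122 or less.

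That reading was the most extreme of its kind in the whole table. On the log2 scale it lay 4.66 above the next highest array, and no other of the 45037 probe sets on any of the 6 arrays stood so far above the other 5. A distance over 3 was reached by 3 probe sets in Trex1 KO C and 2 in Trex1 WT B and by none on the other 4 arrays. The others in Trex1 KO C were a probe set without a single gene symbol in the annotation, which read 1383 there, and Car3, which read 2753. The next was Adipoq, a fat cell hormone. Its signals were 66.3, 62.5 and 549 in Trex1 KO hearts A, B and C and 23.7, 36.4 and 28.0 in Trex1 WT hearts A, B and C. Whether fat tissue has a part in the Xaf1 reading was not tested. Among the 40 tested genes nearest to Xaf1 on chromosome 11, the largest distance of Trex1 KO C above the other arrays was 0.42. As a marker of sex, Xist had signals of 7569 in Trex1 KO C and 6747 in Trex1 WT C and at most 119 in the other 4 hearts. The cause of the Xaf1 reading was not tested.

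**Figure D2:**
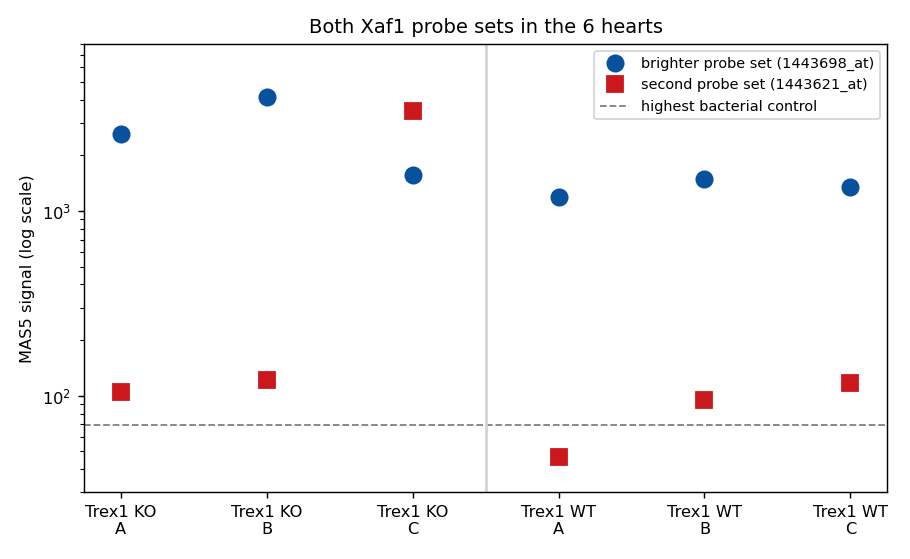
MAS5 signal (log scale) of the brighter (circles) and the second (squares) Xaf1 probe set in each of the 6 hearts, with the highest bacterial control (69.8) as a dashed line. In Trex1 KO C the second probe set reads 3472 and the brighter 1573, whereas in the other 5 hearts the second stays at or below 122.

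Without both animals of pair C the brighter Xaf1 probe set had a log2 difference of 1.29, against 0.93 with all pairs. Without Trex1 KO B it was 0.59, and without both animals of pair B 0.67. With the mean over both probe sets it was 1.46. The partners of Xaf1 in the control of cell death did not pass the test. Xiap, Birc2 and Birc3, all inhibitors of apoptosis, had log2 differences of -0.07, -0.10 and 0.06 (adjusted p in limma = 0.971, 0.970 and 0.994). In Trex1 KO C Xiap read 2105, close to 2144 in its Trex1 WT littermate.

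**Figure D3:**
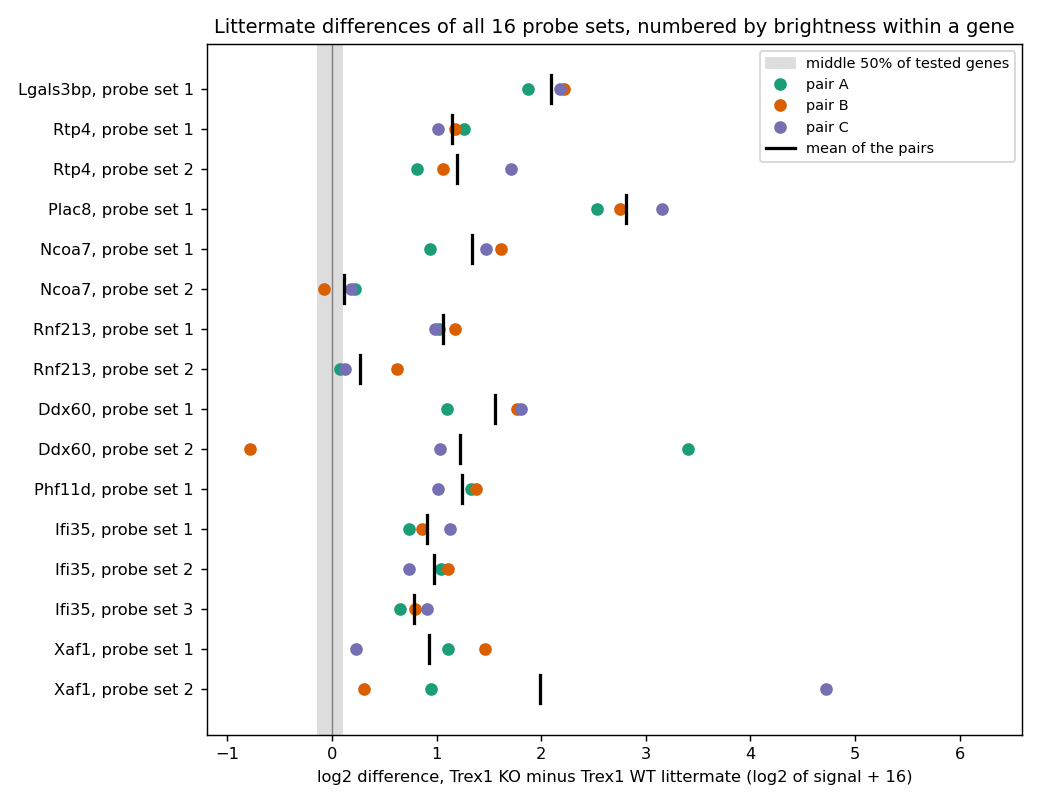
Littermate differences (Trex1 KO minus Trex1 WT, log2 of signal + 16) of all 16 probe sets of the 9 genes, numbered from the brightest within each gene, with a bar at the mean of the pairs and a grey band for the middle 50% of tested genes (-0.13 to 0.10). On the brightest probe sets every pair lies above 0, with the lowest at 0.23 (Xaf1, pair C). The second probe set of Ddx60 runs from -0.78 to 3.40 and that of Xaf1 from 0.31 to 4.72.

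The 3 Trex1 KO hearts were not equally high. On the brightest probe sets Trex1 KO B was the highest for 7 of the 9 genes and Trex1 KO C for Lgals3bp and Ifi35. Trex1 KO A was the lowest for 6 and Trex1 KO C for Ncoa7, Phf11d and Xaf1. Among the 32 other genes that passed as higher, Trex1 KO B was the highest for 26 and Trex1 KO C for 6, and Trex1 KO A was the lowest for 28 and Trex1 KO C for 4. Over all tested genes Trex1 KO B was the highest of the 3 for 31.0% and Trex1 KO A the lowest for 35.3%. In Trex1 WT hearts the highest was B for 5 of the 9 genes, A for 2 and C for 2.

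Most further interferon-induced genes outside the well-known families had differences above 0, but few passed the test. Of 29 tested genes of that list, 1 passed as higher and 0 as lower in limma, against 0.312% and 0.039% of all tested genes. The median difference was 0.42, with 25 of 29 above 0, against 44.5% of all tested genes, and 15 with an unadjusted p under 0.05, against 5.29%. Herc6, an ISG15 ligase in mice, had signals of 509, 777 and 499 in Trex1 KO hearts A, B and C, against 165, 152 and 142 in Trex1 WT hearts A, B and C (log2 difference 1.83, SE 0.20, adjusted p in limma = 0.00373). The hearts of the groups were far apart, and its other 3 probe sets gave 1.30 to 1.58 and did not pass (adjusted p in limma from 0.17 to 0.175). With the littermate pair as a replicate block 4 passed, the added genes being Samd9l, Ly6e and Isg20, named after their values were seen (adjusted p in limma = 0.00327, 0.01 and 0.0382). Of 14 tested partners and paralogs, 2 passed as higher and 0 as lower in limma, Ddx58 and Dhx58 above, against 0.312% and 0.039% of all tested genes. Their median was 0.12, with 9 of 14 above 0 and 6 with an unadjusted p under 0.05, against 44.5% and 5.29% of all tested genes. Cnfn, a relative of Plac8, had a difference of 0.18 (adjusted p in limma = 0.974), and Plac8l1 and Ifi44l were too dim to test.

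**Figure D4:**
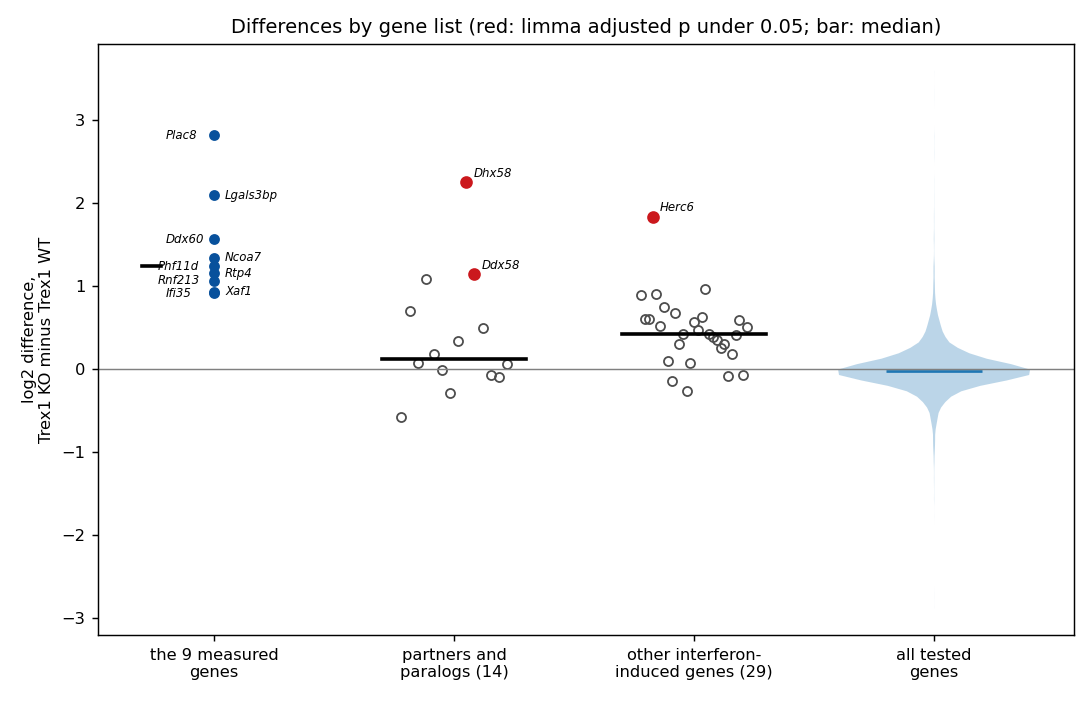
Log2 difference (Trex1 KO minus Trex1 WT) of the 9 genes (blue, chosen on this contrast and so shown without their calls), of 14 partners and paralogs, of 29 other interferon-induced genes and, as a violin, of all 12811 tested genes. Bars mark medians (1.24, 0.12, 0.42 and -0.02), and red points passed limma at an adjusted p under 0.05.

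Herc6 lost its call in 3 of 18 alternative fits, with a limma adjusted p of up to 0.297. The number of the 9 genes past the threshold was 8 with the replicate block, 2 without the intensity trend and 1 with a term for the Actb ratio. Leaving out a single array, it was 3 without Trex1 KO B or Trex1 KO C and 6 or 7 without any other. Without both animals of pair A, B or C it was 2, 5 and 2, and with the mean over the probe sets of a gene it was 5. Ncoa7 did not pass in 15 of the 18 alternative fits, Rnf213 and Ddx60 in 8 each, Rtp4 in 7, Ifi35 in 6, Phf11d in 4, Plac8 in 1 and Lgals3bp in 0, and Xaf1 passed in none. Over all tested genes, 68 passed as higher with the replicate block, 16 without the intensity trend and 6 with the Actb term. That number was 42 with the mean over probe sets and 16 to 55 without an array or pair. Nothing is read from the calls of the 9 genes, which were chosen on this contrast. The median difference of the 9 genes stayed between 1.10 and 1.35 in all of these fits.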

How the data were processed

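Total RNA was labelled with biotin per the labels, with 1 array per mouse. The deposited values are the authors' MAS5 intensity per probe set on a linear scale, per the submitters' processing notes; the sources used here give no version or settings. The trimmed mean was 500.0 on each array, so no further scaling was done. Of 45037 probe sets that were not controls, 34945 had a single symbol, 932 several and 9160 none in the platform annotation; symbols were checked by Entrez identifier against RefSeq GRCm38.p6.

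Values were transformed to log2(signal + 16). Probe sets with a mean at or above the 40th percentile (27022) entered a limma fit (version 3.58.1, R 4.3.3, lmFit, eBayes with trend, two-sided) over all 6 arrays, with Benjamini-Hochberg adjustment over all of them and a threshold of 0.05. The brightest single-symbol probe set stood for a gene. Alternatives were other pseudocounts, filters, quantile normalisation, no trend, a littermate block, a term for the Actb ratio, the mean over probe sets, and leaving out each array or pair. The fit was run on simulated data with independent noise and with differences larger than most described here. That run therefore does not show how the fit handles smaller differences or correlated littermates. The groups come from the sample titles and the littermate pairs from the design text. Deviations from group means correlated at 0.151, 0.192 and 0.147 within pairs and from -0.161 to 0.0101 otherwise. Deviations within a group cancel out, so these values depend on each other and are no independent check of the pairing. Pair C also differed from the others in sex markers. The members and lists were chosen with earlier results of these data known. The text names all members, every tested partner or paralog, up to 6 passing genes of the list of other interferon-induced genes, and markers. The spread behind each p-value and SE is that between 3 animals a group, moderated by limma toward a trend with brightness over the 27022 probe sets. Littermate pairs entered only the fit with a littermate block. The number of arrays limits precision.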

Additional observations from a re-analysis of the deposited data

How the results depend on the processing

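The median difference of the 9 genes kept its direction in all 18 alternatives. Of 162 single-gene values, 154 moved by less than the spread between littermate pairs, 8 by more and 0 changed sign; the widest ranges were 0.59 to 1.46 for Xaf1 and 0.72 to 1.65 for Ncoa7. The pseudocounts 1 and 64, the filters and the quantile normalisation kept the counts of genes passing within 1.5 times the 40 higher and 5 lower. These were 68 higher and 12 lower with the replicate block (littermate pairs), 16 and 2 without the intensity trend, and 6 and 0 with a term for the Actb ratio. With the mean over the probe sets of a gene, 11 were lower. Without a single array or both animals of a pair, 16 to 55 were higher and 0 to 8 lower. The single arrays that moved them most were Trex1 KO B (25 higher), Trex1 KO A (1 lower) and Trex1 WT A (2 lower), with 3 lower without Trex1 KO C. The 2 passing partners were 1 with a pseudocount of 1, no filter, the 60th percentile filter or quantile normalisation, 0 without the trend or with the Actb ratio, and 0 to 2 in the fits without an array or pair. The 1 passing gene of the other list became 2 with a pseudocount of 64, quantile normalisation or the mean over probe sets, 4 with the replicate block, 0 with the Actb ratio and 0 to 3 without an array or pair (3 without Trex1 WT B). The cause of these changes was not tested. The longer ISRE form gave the same 2 genes. Dim second probe sets of Ncoa7, Rnf213 and Ddx60 limit what can be said of those genes beyond their brightest probe set.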
